A study of Mus musculus with 12 samples.

Results

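H3K27ac, an acetylation of histone H3 found at active promoters and enhancers, was examined at the genes of the thyroid hormone and corticoid receptors and at 2 genes that these receptors are known to regulate. The receptor genes were Thra and Thrb (thyroid hormone receptors alpha and beta), Nr3c1 (glucocorticoid receptor) and Nr3c2 (mineralocorticoid receptor), and the target genes were Klf9 and Fkbp5. These 6 genes were chosen by name, with earlier results of these data known. They were among 21887 protein-coding genes with a RefSeq position. Of those, 14317 carried enough called H3K27ac to be tested, all 6 included. The mark had been mapped by chromatin immunoprecipitation and sequencing (ChIP-seq) in single whole mouse hearts on the day of birth (P0). The edKO hearts (n = 3, numbered 1, 3 and 6) lacked both Rxra and Rxrb, which encode retinoid X receptors, in cardiomyocytes. The WT hearts (n = 3, numbered 1, 3 and 4) were wild type. The Cre line behind the deletion is not given in the sources used here, so whether all other cell types of an edKO heart keep both genes cannot be told. The question addressed is which marked chromatin changes when newborn heart muscle has no retinoid X receptors of these kinds.

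Thyroid hormone receptors bind DNA mostly as pairs with a retinoid X receptor, on repeats of the half-site AGGTCA, and in the heart they control contractile and calcium handling genes around birth. The glucocorticoid and mineralocorticoid receptors bind DNA mainly as homodimers, without a retinoid X receptor, on inverted repeats of the half-site AGAACA, and both are activated by corticosteroids. Glucocorticoid signalling before birth is known to mature the fetal heart. Klf9 encodes a zinc finger repressor induced by both thyroid hormone and glucocorticoids. Fkbp5 encodes FKBP51, a co-chaperone that holds the glucocorticoid receptor in a state of low hormone affinity and is itself induced by corticoids.

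Promoter sequences are shown because the called mark covers some of these starts in full and leaves another empty. RefSeq promoter windows (build GRCm38.p6, 250 bases before to 50 bases after a start, 300 bases, 5′ to 3′ in the direction of the gene) matched 4 of the 6 genes, with 5 windows in all. Capitals mark matches to the half-sites AGGTCA (thyroid hormone receptor) or AGAACA (corticoid receptors), searched on both strands as AGGTCA or TGACCT and as AGAACA or TGTTCT. The Klf9 window lies at chr19:23140976-23141275 on the plus strand, the Fkbp5 window at chr17:28486100-28486399 on the minus strand, and the 2 Thrb windows at chr14:17660710-17661009 and chr14:17981394-17981693, both on the plus strand.
Klf9: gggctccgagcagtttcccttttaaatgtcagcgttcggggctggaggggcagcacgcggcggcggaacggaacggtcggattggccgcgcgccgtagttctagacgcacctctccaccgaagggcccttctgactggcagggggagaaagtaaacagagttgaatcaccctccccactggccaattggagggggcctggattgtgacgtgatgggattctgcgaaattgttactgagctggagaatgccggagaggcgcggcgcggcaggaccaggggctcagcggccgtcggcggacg
Fkbp5: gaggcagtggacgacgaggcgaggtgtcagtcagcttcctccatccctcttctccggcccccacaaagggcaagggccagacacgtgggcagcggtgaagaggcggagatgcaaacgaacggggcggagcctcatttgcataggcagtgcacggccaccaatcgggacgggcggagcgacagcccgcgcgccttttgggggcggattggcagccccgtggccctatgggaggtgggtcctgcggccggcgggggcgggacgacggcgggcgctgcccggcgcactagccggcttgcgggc
Thrb, first start: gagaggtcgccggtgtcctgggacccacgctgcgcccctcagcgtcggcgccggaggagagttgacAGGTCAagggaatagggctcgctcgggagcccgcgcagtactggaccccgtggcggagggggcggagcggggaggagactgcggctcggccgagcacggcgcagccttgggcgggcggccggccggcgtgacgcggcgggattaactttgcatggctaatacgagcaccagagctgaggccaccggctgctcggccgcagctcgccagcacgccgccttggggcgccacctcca
Thrb, second start: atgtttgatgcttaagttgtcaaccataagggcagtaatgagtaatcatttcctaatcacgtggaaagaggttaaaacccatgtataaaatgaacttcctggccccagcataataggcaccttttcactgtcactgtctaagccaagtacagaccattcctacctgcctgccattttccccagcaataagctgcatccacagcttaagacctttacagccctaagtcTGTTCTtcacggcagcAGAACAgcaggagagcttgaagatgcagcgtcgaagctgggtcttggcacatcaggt
The Klf9 window was covered by called H3K27ac over all 300 bases in every heart. The Fkbp5 window was covered over 300, 79 and 300 bases in edKO hearts 1, 3 and 6 and over 300 bases in each WT heart. The first Thrb window was covered over 214, 300 and 300 bases in edKO hearts and over 227, 300 and 300 bases in WT hearts, and the second Thrb window was not called in any heart. The Klf9, Fkbp5 and first Thrb windows held 28, 32 and 37 CG dinucleotides, against 4 in the second Thrb window. Over all 32851 RefSeq windows, the median was 22 CG in the 37.7% called in all 6 hearts and 4 in the others.

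The fifth window, at the annotated Nr3c2 start, lay at the edge of a called region and held 17 CG dinucleotides and no half-site. It was covered over 300, 0 and 44 bases in edKO hearts 1, 3 and 6 and over 156, 0 and 109 bases in WT hearts 1, 3 and 4. The first Thrb window held 1 thyroid hormone receptor half-site, at -184 with the start as base 0, and the second held TGTTCT at -23 and AGAACA at -7. No half-site of either kind was found in the Klf9 or Fkbp5 window, although both genes are known targets, which says only that these letters are not within these 300 bases. The thyroid hormone receptor half-site occurred in 16.3% and the corticoid half-site in 19.0% of all windows. The spaced repeat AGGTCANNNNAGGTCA, which contains the thyroid hormone receptor half-site at each end, and the inverted repeat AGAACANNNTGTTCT, which contains the corticoid half-site on both strands, were in none of the 5 windows. They occurred in 0.0152% and 0.00913% of all windows.

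The amount of marked chromatin differed widely between the receptor genes and little between the genotypes at most of them. For each heart, the base pairs covered by called peaks were added up across the gene body plus 10 kb of flank at either end. Set against the length of that window, the order ran Thra, Klf9, Fkbp5, Nr3c1, Nr3c2 and Thrb. Covered shares were 54.2 ± 5.02% in edKO and 57.6 ± 0.885% in WT hearts at Thra (mean ± SD, n = 3 hearts per genotype here and below), and 20.7 ± 4.37% and 20.0 ± 1.93% at Klf9. They were 11.8 ± 4.03% in edKO and 11.7 ± 2.36% in WT hearts at Fkbp5, 3.44 ± 0.650% and 5.22 ± 0.152% at Nr3c1, and 2.80 ± 0.916% and 3.67 ± 0.287% at Nr3c2. Thrb came last with 0.190 ± 0.0702% in edKO and 0.220 ± 0.0611% in WT hearts. Over the 6 hearts these ranges did not overlap between neighbours in the order, except for Nr3c1 (2.91 to 5.35%) and Nr3c2 (1.89 to 3.89%). In bulk hearts, fewer cells carrying a mark and less mark per cell cannot be told apart.

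**Figure D1:**
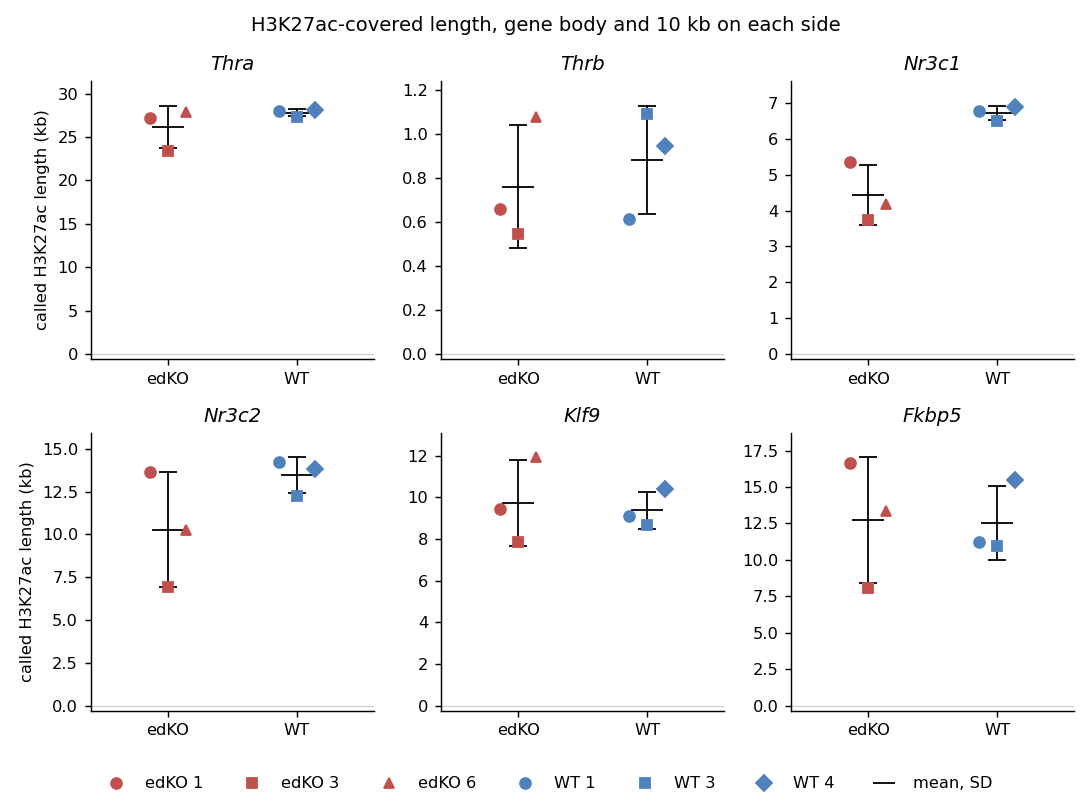
Called H3K27ac length in kb (vertical axis, from 0) across each gene body plus 10 kb of flank at either end, for each edKO and WT heart (points, shaped by heart number), with the mean and SD (black). At Nr3c1 the edKO hearts lie between 3747 and 5367 bp, below all WT hearts, while the genotypes overlap at the other 5 genes.

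None of the 6 genes passed the test for a difference between genotypes, and Nr3c1 came nearest. Length was compared as log2(bp + 200), centred per heart, which takes out a shift common to all loci but not every effect of list length. The comparison used limma across all 14317 loci at a Benjamini-Hochberg adjusted p of 0.05. By that rule 0.105% of all loci were lower in edKO hearts and 0% higher, and 0 of the 6 genes were called in either direction (1 of 6 at an unadjusted p under 0.05, against 4.62% of loci lower and 1.98% higher). The median log2 difference of the 6 genes was -0.05, against 0.03 over all loci. Nr3c1 alone had all edKO hearts below all WT hearts, which was true of 5.78% of loci, and none of the 6 had all edKO hearts above, which was true of 7.12%.

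The peak lists themselves differed in size, which bears on every raw length below. They covered 66.57, 47.87 and 62.63 Mb in edKO hearts 1, 3 and 6, and 67.37, 68.26 and 59.07 Mb in WT hearts 1, 3 and 4. Heart edKO 3, with the least covered length in all, also had the least at each of the 6 genes. Read depth per heart is unknown, counting error could not be set, and a region not called is not shown to lack the mark. All 7 cardiomyocyte marker genes checked (Myh6, Tnnt2, Actn2, Ryr2, Nppa, Tnni3 and Pln) carried called H3K27ac in every heart, with summed lengths of 110834 to 159876 bp in edKO and 149857 to 153500 bp in WT hearts. The 6 fibroblast markers summed to 31975 to 37237 bp in edKO and 23973 to 45289 bp in WT hearts. The leukocyte genes Ptprc and Itgam, the erythroid genes Hbb-bt and Gata1, the liver genes Alb and Serpina1a and the neuronal gene Snap25 were at 0 bp in all hearts.

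Thra, the main thyroid hormone receptor gene of the heart, stood among the most densely marked loci of the genome. Its window (gene body chr11:98740776-98769006, gene ID 21833) held 27175, 23393 and 27908 bp of called H3K27ac in edKO hearts 1, 3 and 6, against 28004, 27309 and 28086 bp in WT hearts 1, 3 and 4. Only edKO 3 lay clearly apart, and the genotypes overlapped. The covered share ranked at the 99.8th to 99.9th percentile of all 21887 protein-coding loci in every heart. The log2 difference was -0.01 (SE 0.10, limma adjusted p = 0.995), with no direction that held, since it turned positive under 6 of 19 alternatives.

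The Thra window had 12 distinct called regions over the 6 hearts, 7 of them called in all hearts. The region at the lower-coordinate end of the gene (98739437 to 98745569) measured 5637, 5159 and 5706 bp in edKO and 5616, 5587 and 5839 bp in WT hearts. Its strongest summit ranked at the 99.1st to 99.9th percentile of fold enrichment within each heart's own list. A second wide region, just past the other end of the gene (98771035 to 98778439), measured 7084, 7014 and 7176 bp in edKO and 7242, 7092 and 7066 bp in WT hearts. That region lies over Nr1d1, the gene of the circadian repressor REV-ERB alpha, whose body (98767932 to 98775377, minus strand) overlaps the end of Thra. Called regions covered 7068, 6482 and 6887 bp of the Nr1d1 body in edKO hearts and 7133, 6609 and 6279 bp in WT hearts. A histone mark has no strand, so this share of the Thra window cannot be assigned to either gene. With the Nr1d1 locus tested on its own, the log2 difference was 0.02 (SE 0.10, limma adjusted p = 0.978).

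Thrb, the second thyroid hormone receptor gene, carried almost no called mark. Its window of 400.9 kb (gene body chr14:17659225-18040097, gene ID 21834) held 658, 547 and 1080 bp in edKO hearts 1, 3 and 6 and 614, 1093 and 944 bp in WT hearts 1, 3 and 4. High and low hearts occurred in both genotypes. The log2 difference was -0.10 (SE 0.27, limma adjusted p = 0.953). One region was called in all hearts, over the first annotated start (17660237 to 17661226), and measured 334, 547 and 816 bp in edKO and 614, 817 and 684 bp in WT hearts. It was weak, since its strongest summit ranked between the 8.9th and the 63.5th percentile of fold within the lists. It also lies inside LOC115488350, an annotated gene on the opposite strand, so it is shared by both. A second region 84.2 kb into the gene was called in edKO 1, WT 3 and WT 4 at 324, 276 and 260 bp.

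**Figure D2:**
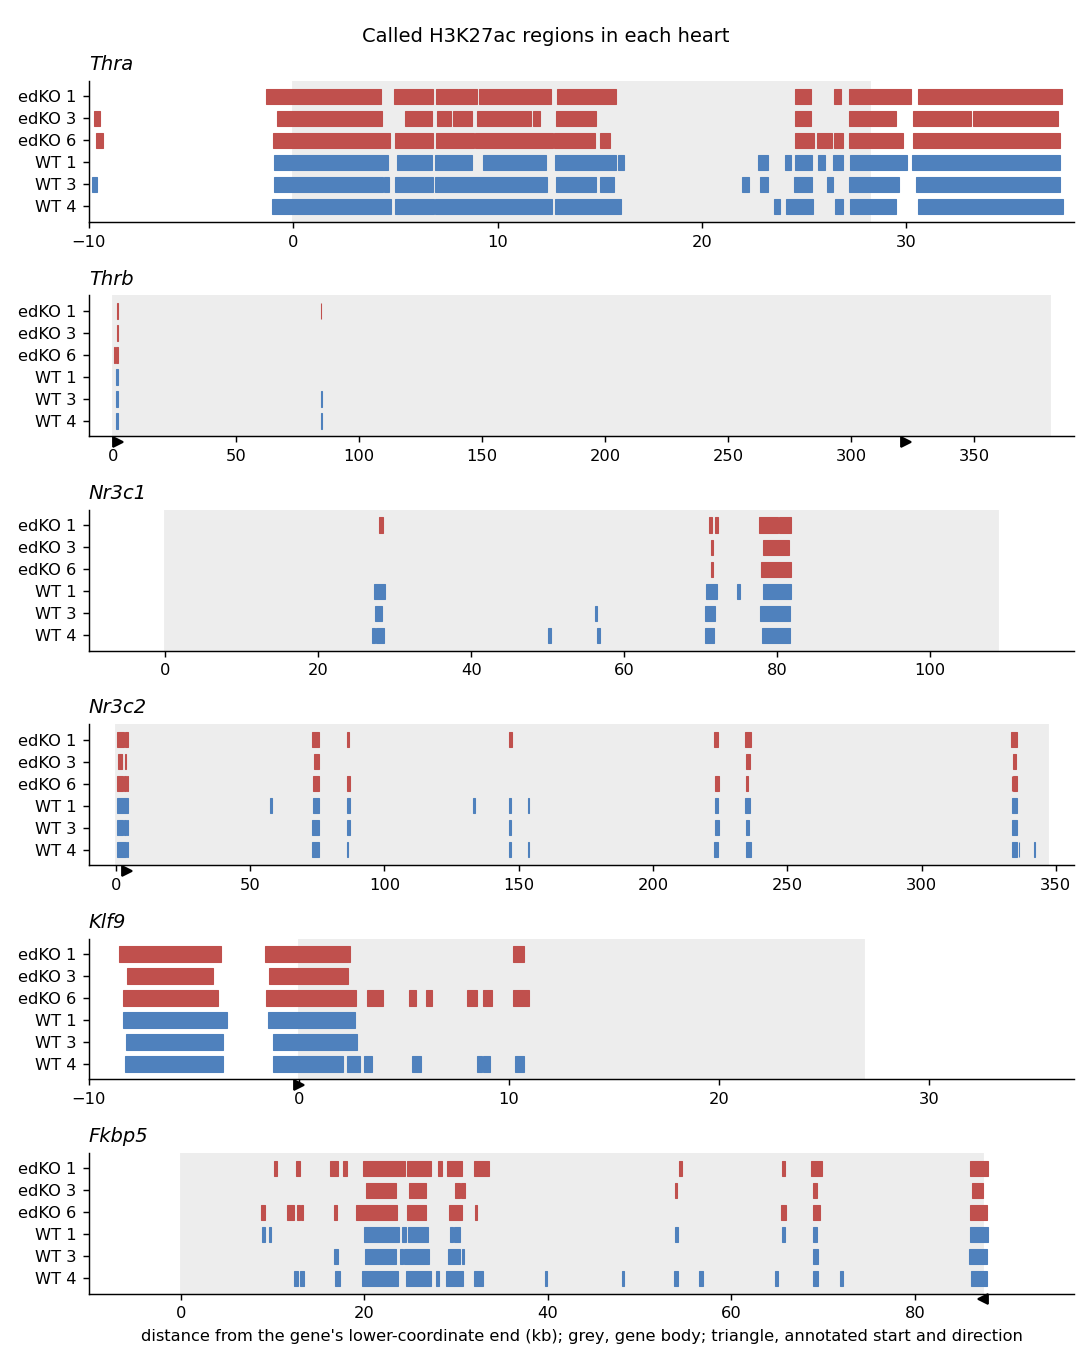
Called H3K27ac regions (bars) in each edKO (red) and WT (blue) heart, one row per heart, against distance in kb from the lower-coordinate end of each gene, with the gene body in grey and annotated starts of 4 genes as triangles. Thra is covered nearly end to end in its first 15 kb, Thrb has 1 region called in all hearts, and at Nr3c1 the region 26999 bp from the lower end is called in 1 edKO heart and 3 WT hearts.

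Nr3c1, the glucocorticoid receptor gene, had less called H3K27ac in every edKO heart than in any WT heart, without passing the test. Its window (gene body chr18:39410545-39519421, gene ID 14815) held 5367, 3747 and 4184 bp in edKO hearts 1, 3 and 6, against 6777, 6507 and 6889 bp in WT hearts 1, 3 and 4. The means were 4433 ± 838 bp in edKO and 6724 ± 196 bp in WT hearts. After centring, the log2 difference was -0.51 (SE 0.12, limma unadjusted p = 0.00267, adjusted p = 0.276), which ranked 137th of 14317 loci by unadjusted p. It stayed negative in all 19 alternatives run, between -0.60 and -0.27, with limma adjusted p between 0.22 and 0.58. The smallest difference came from the window widened to 50 kb on each side, and without edKO 3 it was -0.52. An exact permutation test of the raw lengths gave p = 0.1, the lowest value possible with 3 hearts per genotype.

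The shorter length at Nr3c1 lay outside its widest region. The widest and strongest region (39488184 to 39492384, 27037 bp from the upper-coordinate end) measured 4074, 3427 and 3831 bp in edKO and 3658, 3860 and 3561 bp in WT hearts, with the genotypes interleaved. Its strongest summit ranked at the 98.4th to 99.4th percentile of fold in the 6 lists. The region at 39481075 to 39482819 measured 717, 320 and 353 bp in edKO hearts, against 1434, 1317 and 1051 bp in WT hearts, so every edKO value lay below every WT value. The region at 39437544 to 39439228 measured 576 bp in edKO 1 and was not called in edKO 3 or edKO 6, against 1420, 1002 and 1488 bp in WT hearts. These were the only 2 of the 63 regions at the 6 genes in which every edKO heart lay below every WT heart, and none had all edKO hearts above. Over all 79241 regions of the 6 lists, 4.62% had all edKO hearts below and 0.641% all edKO hearts above. With 2 of 63, the 6 genes lay near that background, and the 2 regions were singled out after their values were seen.

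Both regions kept this split when each list was shortened to 80179 entries, the length of the shortest one. That step left the edKO 3 list whole and the edKO 1 list nearly so (80672 entries before). Only the WT 4 length at 39437544 to 39439228 changed, from 1488 to 1035 bp. The regions had been picked from these same values, so this is no separate support for them. With entries of a −log10 q-value under 5 left out, the region at 39437809 to 39439228 was called in no edKO heart, against 1420, 1002 and 1035 bp in the WT hearts. The other then measured 353 bp in edKO 6 alone among edKO hearts, against 1434, 1317 and 1051 bp in WT hearts. How many of all regions split this way was counted neither in the shortened lists nor at that threshold. Lists then held 61807, 60233 and 78277 entries in edKO and 78316, 80054 and 73121 in WT hearts. In the full lists no region at the 6 genes was called in all hearts of one genotype and none of the other, against 0.0707% of all regions for edKO and 1.08% for WT. The other 4 regions at Nr3c1, of 265 to 398 bp, were called in no edKO heart and in 1 WT heart each, so they also add to the longer WT length.

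**Figure D3:**
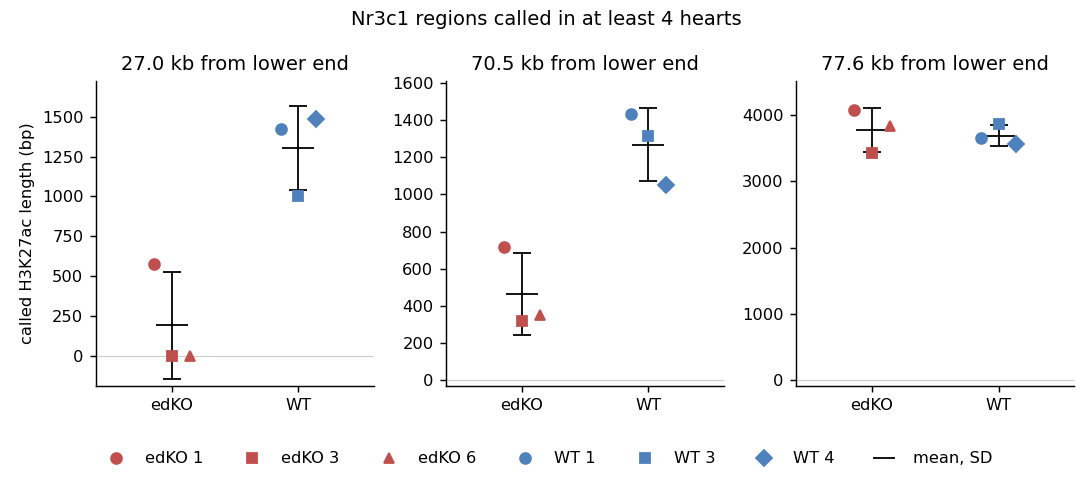
Called H3K27ac length in bp (vertical axis) of the 3 Nr3c1 regions called in at least 4 hearts, titled by distance from the lower-coordinate end of the gene, in edKO and WT hearts (points) with mean and SD (black). The edKO hearts lie below the WT hearts in the left and middle panels and are interleaved with them in the right panel, which shows the widest region.

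Nr3c2, the mineralocorticoid receptor gene, had a mean of 10278 ± 3362 bp in edKO and 13449 ± 1053 bp in WT hearts, with overlap. Its window (gene body chr8:76898083-77245012, gene ID 110784) held 13655, 6931 and 10249 bp in edKO hearts 1, 3 and 6, against 14259, 12258 and 13829 bp in WT hearts 1, 3 and 4. Heart edKO 1 was as high as the WT hearts, and edKO 3 was the lowest. The log2 difference was -0.35 (SE 0.16, limma adjusted p = 0.78), negative in all 19 alternatives at -0.49 to -0.21. The region near the start of the gene (76898519 to 76902658) measured 3907, 2227 and 3460 bp in edKO and 3746, 3376 and 3883 bp in WT hearts. Regions 85.9, 146.4 and 222.8 kb into the gene were not called in edKO 3 but were called in all WT hearts, and the one at 146.4 kb was not called in edKO 6 either. The 4 regions called in all hearts added up to 10672, 6931 and 7898 bp in edKO and 9654, 8940 and 10284 bp in WT hearts.

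Klf9 carried 2 strong regions that differed little between genotypes. Its window (gene body chr19:23141226-23168129, gene ID 16601) held 9415, 7849 and 11911 bp in edKO hearts 1, 3 and 6, against 9083, 8645 and 10382 bp in WT hearts 1, 3 and 4. The highest and the lowest heart were both edKO. The log2 difference was 0.12 (SE 0.15, limma adjusted p = 0.893). The region over the start (23139606 to 23144127) measured 4046, 3747 and 4277 bp in edKO and 4118, 4029 and 3967 bp in WT hearts, and the full coverage of the printed Klf9 promoter lies within it. An upstream region ending 3.4 kb before the start (23132646 to 23137821) measured 4873, 4102 and 4539 bp in edKO and 4965, 4616 and 4637 bp in WT hearts. The strongest Klf9 entry ranked at the 99.7th, 99.6th and 99.8th fold percentile in the edKO lists and at the 99.9th or above in each WT list (exact permutation p = 0.1). The mean rank differed by -0.22 percentile points, edKO minus WT, and by as much with lists of equal length (exact permutation p = 0.1). At Thra the exact permutation p was also 0.1, with 99.4, 99.7 and 99.8 in edKO and 99.8, 99.8 and 99.9 in WT lists. The share of all loci that split this way was not counted. A rank of the caller's fold within 1 heart's list is not a level of the mark.

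Outside those 2 regions, short pieces inside Klf9 made up 496, 0 and 3095 bp in edKO and 0, 0 and 1778 bp in WT hearts. They came almost wholly from edKO 6 and WT 4, whose lists had the shortest regions of the 6, 925 and 891 bp on average. Whether this plays a part in the extra pieces was not tested.

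Fkbp5 had a broad region deep inside the gene that was larger than the one at its start. Its window (gene body chr17:28398753-28486149, gene ID 14229) held 16671, 8092 and 13354 bp in edKO hearts 1, 3 and 6, against 11203, 10940 and 15450 bp in WT hearts 1, 3 and 4. Both the highest and the lowest value were in edKO hearts. The log2 difference was 0.06 (SE 0.22, limma adjusted p = 0.959). Without centring it was -0.02, so it has no direction. The broad region (28417861 to 28426070), 60.1 kb from the annotated start, measured 7247, 5146 and 6533 bp in edKO and 6465, 6416 and 6661 bp in WT hearts, with a top fold between the 95.4th and 98.5th percentile. The region over the start (28484699 to 28486729) measured 1949, 1241 and 1912 bp in edKO and 1885, 1912 and 1755 bp in WT hearts. A further pair of regions was called in all hearts, 56.4 and 17.5 kb from the start. Of 21 regions at Fkbp5, 10 were called in a single heart. Over the 6 genes 20 of 63 regions were called in all hearts and 22 in 1 heart, against 35.8% and 32.1% of all regions.

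The number of regions and the rank of the strongest entry gave no call either. The counts were 9, 12 and 12 in edKO and 13, 13 and 9 in WT hearts at Thra, and 2, 1 and 2 in edKO and 1, 2 and 2 in WT hearts at Thrb. They were 5, 2 and 3 in edKO and 4, 4 and 6 in WT hearts at Nr3c1, and 8, 6 and 11 in edKO and 13, 9 and 11 in WT hearts at Nr3c2. Klf9 had 3, 2 and 8 regions in edKO and 2, 2 and 8 in WT hearts, and Fkbp5 had 13, 7 and 12 in edKO and 11, 8 and 17 in WT hearts. Over these 6 genes the exact permutation p of the region counts lay between 0.3 and 1.0. In the same tests of the top fold percentile it lay between 0.1 and 0.9, and no test of 3 against 3 hearts can go below 0.1. At Nr3c2 the top entry ranked at the 85.1st, 74.7th and 88.5th percentile in edKO and at the 90.9th, 85.9th and 93.3rd in WT hearts.

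The genes that supply thyroid hormone and assist its receptors showed no called difference. Of 7 genes of hormone supply, 4 were tested and 0 passed, none at an unadjusted p under 0.05 either, with a median log2 difference of 0.01 against 0.03 over all loci. Dio1, a deiodinase that activates the hormone, was at 0.18 (SE 0.13), and the hormone transporter Slc16a10 was at -0.04 (SE 0.13). Dio3, the deiodinase that inactivates the hormone, had no called mark in any heart. Of 9 coactivator and corepressor genes shared by nuclear receptors, 0 passed by limma, none reached an unadjusted p under 0.05, and the median was -0.02. The coactivators Ncoa1 and Ncoa3 were at -0.39 (SE 0.22) and -0.21 (SE 0.13). Tbl1xr1, a corepressor subunit, was at -0.15 (SE 0.10), with 3820, 2823 and 3632 bp in edKO and 4431, 4090 and 3592 bp in WT hearts, which overlap in raw length.

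Among 14 known thyroid hormone targets of the heart, none passed, and the median was -0.01. By limma 2 reached an unadjusted p under 0.05, both lower, against 4.62% of all loci lower and 1.98% higher. The list, like the other pathway lists, was chosen with earlier results of these data known. Me1, which encodes malic enzyme, held 5346, 3521 and 4412 bp in edKO hearts 1, 3 and 6, against 7809, 9942 and 6672 bp in WT hearts 1, 3 and 4. Every edKO heart lay below every WT heart, and the log2 difference was -0.76 (SE 0.13, limma adjusted p = 0.104). Hcn2, a pacemaker channel gene, held 408, 0 and 929 bp in edKO hearts, against 1195, 1442 and 3421 bp in WT hearts, again without overlap, as at 5.78% of all loci in that direction. Its log2 difference was -1.89 (SE 0.60, limma adjusted p = 0.559), on little covered length. The share of 5.78% is of centred lengths, in which Me1 and Hcn2 did not overlap either. Hcn4, the main channel gene of that family in the sinus node, was at 0.36 (SE 0.21). Myh6 and Myh7, the adult and fetal myosin heavy chain genes, were at -0.08 (SE 0.15) and 0.06 (SE 0.09), and Atp2a2, which encodes the calcium pump of the sarcoplasmic reticulum, was at -0.23 (SE 0.17). These 3 were named after their values were seen.

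The corticoid side gave the same count of 0 genes past the threshold. Of 9 genes of steroid supply and receptor chaperones, 8 were tested, none reached an unadjusted p under 0.05, and the median log2 difference was -0.05. H6pd, which feeds the glucocorticoid-regenerating enzyme, was at -0.31 (SE 0.16), and the chaperone Fkbp4 and the enzyme gene Hsd11b1 itself were at -0.15 and -0.08. Of 17 corticoid targets, also chosen with earlier results known, none passed, and the median was 0.03. By limma 3 reached an unadjusted p under 0.05 (4.62% of all loci lower, 1.98% higher). Mt1, a metallothionein gene, held 5820, 4699 and 5186 bp in edKO hearts, against 7011, 7407 and 6772 bp in WT hearts (log2 difference -0.34, SE 0.10, limma adjusted p = 0.449). Angptl4, an inhibitor of lipoprotein lipase that is also a PPAR target, held 5600, 4966 and 2873 bp in edKO hearts, against 6914, 8727 and 7675 bp in WT hearts (log2 difference -0.73, SE 0.26, limma adjusted p = 0.641). Cdkn1a, a cell cycle inhibitor, was higher in every edKO heart, with 2498, 2263 and 2674 bp in edKO and 1911, 2219 and 1913 bp in WT hearts (log2 difference 0.36, SE 0.12, limma adjusted p = 0.56). At these 3 targets the genotypes did not overlap, in raw or in centred length. After centring, 2 of the 17 targets had all edKO hearts below all WT hearts and 2 had all above, these 3 among them. Over all loci the centred shares were 5.78% below and 7.12% above. Unlike Mt1, the metallothionein gene Mt2 of the same list was at -0.01 (SE 0.11), with overlap. It held 5055, 4586 and 4736 bp in edKO and 5244, 5253 and 4869 bp in WT hearts. Mt2 was named after its values were seen.

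Other receptors and Klf genes also gave 0 calls by limma, and none of them reached an unadjusted p under 0.05. Of 16 other nuclear receptor genes 15 were tested, with a median log2 difference of 0.02. Ppard, a lipid-sensing receptor, was at -0.37 (SE 0.17), and the oxysterol receptor gene Nr1h2 and the orphan receptor gene Nr4a1 were at 0.20 and 0.14. After centring, Nr1h2 and Nr4a1 had all edKO hearts above all WT hearts, as at 7.12% of all loci. In raw length the genotypes overlapped at both. The 7 other Klf genes, of which Klf15 is also among the corticoid targets, had a median of -0.02 (range -0.20 to 0.16). Klf10 was at -0.19 (SE 0.09) with all edKO hearts below, and Klf4 and Klf6 were both at 0.16.

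**Figure D4:**
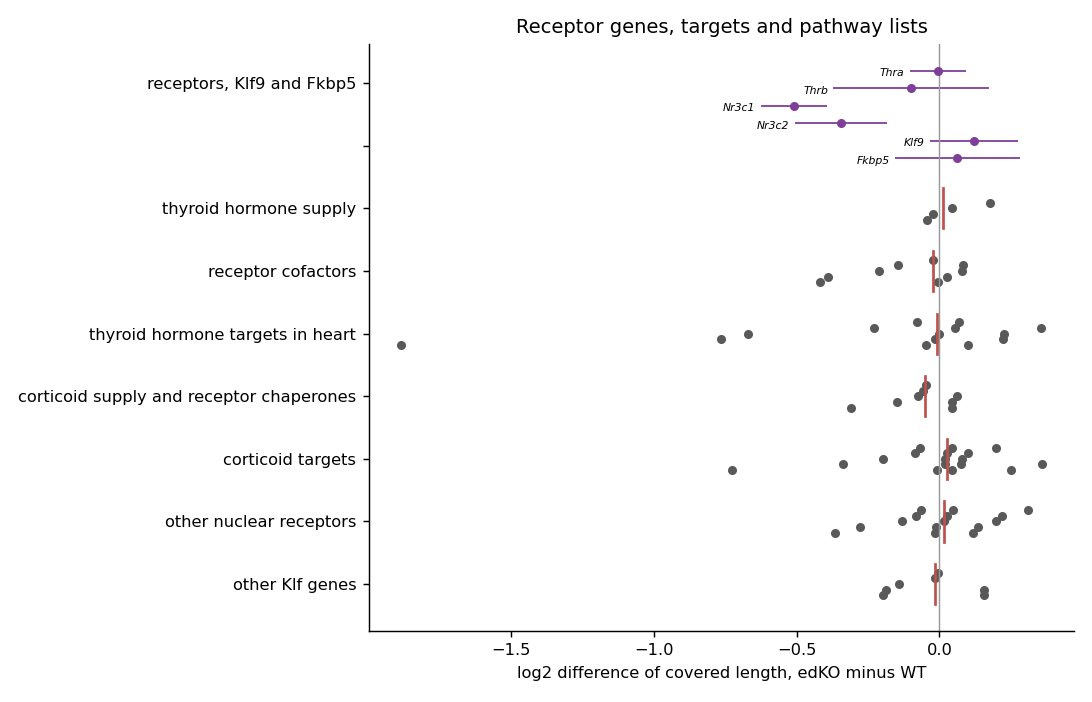
Log2 difference of called H3K27ac length, edKO minus WT (horizontal axis), for the 6 genes (purple, with the SE) and for the tested genes of 7 pathway lists (grey points), with each list's median in red. The medians lie between -0.05 and 0.03, and Hcn2 at -1.89 lies farthest from 0.

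At the deleted genes themselves, the mark does not check the deletion, since whole hearts hold other cell types and the deleted parts are not marked out in the lists. Rxra held 15107, 8682 and 18432 bp in edKO hearts 1, 3 and 6 and 11157, 15540 and 18868 bp in WT hearts 1, 3 and 4 (log2 difference -0.06, SE 0.26, limma adjusted p = 0.968). Rxrb held 5250, 4246 and 5226 bp in edKO and 5138, 5143 and 5323 bp in WT hearts.

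For each of the 6 genes, the loci with the most similar pattern over the 6 hearts were found by the root mean square difference of their centred log2 lengths, each taken from its own mean. For Nr3c1 these were Slc8a1, the sodium-calcium exchanger gene, and Cpt1b, the muscle carnitine palmitoyltransferase gene, at 0.05 and 0.07. Slc8a1 held 28842, 19362 and 21908 bp in edKO and 32635, 32344 and 33997 bp in WT hearts, and Cpt1b held 6135, 4022 and 5220 bp in edKO and 7310, 7410 and 7784 bp in WT hearts. For Nr3c2 they were Strn and Esm1, at 0.06 each, and for Thra Tbc1d10a and Gid8, at 0.02 each. For Thrb they were Clcf1 (0.05) and Lrrc32 (0.06), for Klf9 Serhl and Tmem63b (0.04 each), and for Fkbp5 Rph3al (0.04) and Myo6 (0.06). With 6 hearts and 14317 loci, close matches of this kind are found for every gene, and list size is shared by all of them.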

How the data were processed

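The labels describe H3K27ac ChIP-seq on 6 single P0 hearts (3 edKO, 3 WT), each treated as a biological replicate, and 6 matched inputs, for which no list was used here. Chromatin was fixed with DSG and formaldehyde. The submitters' processing notes name BWA, MACS2, SAMtools and cutadapt (versions not stated) and the builds GRCm38 and mm10. The sources used here give neither peak caller settings nor the use of the inputs.

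The authors deposited 1 peak list per heart, with mm10 positions and a summit for every entry. The deposited fold enrichment is a ratio over the caller's background. The deposited lists also hold a −log10 p-value, a −log10 q-value and a whole-number score for each entry. All of these values are the authors' own and served only to rank or filter entries within 1 list. Depth per heart is unknown.

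Overlapping entries were merged into regions on chromosomes 1 to 19, X and Y. Covered base pairs were summed across the gene body plus 10 kb of flank at either end (RefSeq gene table of GRCm38.p6, the build of mm10), put on the scale log2(bp + 200) and centred within each heart, using the loci with called mark in every heart. A mean of at least 500 bp was required. A difference on this scale understates the change at short lengths. The test between genotypes was limma (version 3.58.1, R 4.3.3) with genotype as the single term, a trended and robust spread and Benjamini-Hochberg adjustment at 0.05, and it was tested on simulated data. The gene table holds no exons, so regions are placed by distance alone. Single values were compared by two-sided exact permutation tests over 20 assignments. Regions were shared between hearts at 1 bp of overlap. Other steps ran in Python 3.11.15 (pandas 2.3.3, numpy 2.4.6, matplotlib 3.10.9, scipy 1.17.1). Alternatives varied the pseudocount, length minimum, centring, list threshold, window, spread model, replicate block and the hearts used.

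The 6 genes and the pathway lists were chosen with earlier results of these data known. Of each list, the genes past the threshold and the 3 with the smallest unadjusted p are named, together with genes inside a window and the 2 most similar loci per gene. Some further names are marked as chosen after their values were seen or show genes with no called mark. Some items that the rule would name are not reported here.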

Additional observations from a re-analysis of the deposited data

How the results depend on the processing

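None of the 6 genes passed the threshold under any alternative run. Nr3c1, Nr3c2 and Klf9 kept their direction in all 19. The log2 difference at Thra turned positive with quantile normalization (0.092), stricter lists (0.033), 50 kb flanks (0.078) and the replicate block (0.046). At Thrb it was 0.75 with lists of equal length, and no value could be had with a minimum of 1500 bp or with stricter lists. At Fkbp5 it was -0.023 without centring. The difference in region number at Thra was 2.0 with stricter and with equal lists, and at Fkbp5 2.0 with equal lists. With stricter lists, 1 region at the 6 genes was called in no edKO heart and in all WT hearts, and the share over all regions was not counted there. The cause of these changes was not tested.

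Over all loci, the 15 lower calls became 9 with stricter lists, 6 with lists of equal length, 31 with 50 kb flanks, 7 with each region given to its nearest gene (and 2 higher calls) and 90 with the replicate block. Numbers 1 and 3 occur in both genotypes, and the labels do not say what a number stands for. Deviations from the group means correlated at 0.179 and 0.032 between same-numbered hearts, against -0.244 to 0.143 between hearts of different number. The block changed no call at the 6 genes (Nr3c1 -0.37, limma adjusted p = 0.43).

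With each heart left out in turn, lower calls numbered 8, 4 and 9 without edKO 1, 3 and 6 and 2, 0 and 1 without WT 1, 3 and 4, and higher calls 0 to 1. The log2 difference ranged from -0.058 to 0.055 at Thra, -0.304 to 0.045 at Thrb, -0.57 to -0.44 at Nr3c1, -0.49 to -0.21 at Nr3c2, 0.01 to 0.25 at Klf9 and -0.079 to 0.27 at Fkbp5. The difference in region number ranged from -2.0 to 0.33 at Thra, -0.33 to 0.33 at Thrb, -2.17 to -0.67 at Nr3c1, -4.0 to -1.5 at Nr3c2, -1.5 to 2.33 at Klf9 and -3.33 to 1.17 at Fkbp5. That in top fold percentile ranged from -0.27 to -0.09 at Thra, -21.3 to 6.0 at Thrb, -0.49 to -0.04 at Nr3c1, -10.2 to -3.25 at Nr3c2, -0.26 to -0.18 at Klf9 and 0.01 to 0.54 at Fkbp5. The unknown depth of each list limits all of these comparisons.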
